A study of Homo sapiens with 5 samples.

Results

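The chromosome 19 zinc finger genes were taken as all genes of the 80% portion whose symbol is ZNF followed only by digits and whose annotated start lies on chromosome 19. This rule gave 241 of 36601 genes, and it used no measured value. For comparison, 235 genes with such symbols lay on other chromosomes, and 1786 further genes lay on chromosome 19. Most of these genes code for proteins with a row of zinc fingers that read DNA and, in many of them, a KRAB domain. KRAB domains recruit the corepressor TRIM28, which brings in the histone methyltransferase SETDB1 and silences the bound DNA, often that of transposable elements. The genes arose by repeated duplication, lie side by side in large clusters along chromosome 19, and near-identical copies can share reads, so the counts of close copies are less certain than those of single genes.

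Nuclei came from 5 human lung adenocarcinoma lines, H2228, H1975, A549, H838 and HCC827, which were grown apart without treatment and then mixed. RNA and open chromatin (ATAC) were read in the same nuclei with the 10X Multiome kit. The captured droplets were divided into an 80% and a 20% portion, with 1 RNA and 1 ATAC library each. There were thus no replicates, no p-value could be given, and every difference was called by its size. Cell line labels per nucleus were not used here, so nuclei are described by RNA cluster.

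The 80% portion held 6557 nuclei, 95455518 RNA UMIs and 63920767 ATAC counts, and the 20% portion held 1286 nuclei and 14346346 RNA UMIs. The portions shared 159 barcodes, and 385 nuclei of the 80% portion were called as doublets. Clustering on RNA without any chromosome 19 gene gave 5 clusters, numbered 0 to 4, with 2491, 1461, 1449, 825 and 331 nuclei. Their leading genes included CDH11, LINC02742 and CD74 in cluster 0, ALDH1A1, AKR1B10 and PDE4D in cluster 1, and ITPR2, CCDC91 and PPFIBP1 in cluster 2. In cluster 3 they included DHRS2 and LINC00624, and in cluster 4 EGFR, SEC61G and CDK4. RNA levels are in CPM, the UMIs of a gene scaled to a total of 1000000 UMIs per cluster, and ATAC levels are scaled in the same way (ATAC CPM). The 6 epithelial markers summed to between 1374 and 9477 CPM in the 5 clusters, mostly from keratins. By the call defined further on, EPCAM, KRT19, CDH1 and ELF3 were low in cluster 2, EPCAM in cluster 1 and CDH1 in cluster 0. KRT18 and ELF3 were high in cluster 1, EPCAM and CDH1 in clusters 3 and 4, and ELF3 in cluster 4. The 5 lung epithelial markers summed to 140, 10.9, 8.18, 83.0 and 188 CPM in clusters 0 to 4, with NKX2-1 and SFTA3 low in clusters 1 and 2. The 4 endothelial markers summed to between 1.62 and 9.36 CPM, mostly from PECAM1 (589 UMIs in the whole portion), while CLDN5 had no UMI and VWF had 21 UMIs. The 5 immune markers summed to between 14.4 and 48.3 CPM, mostly from CD68 (2022 UMIs), with CD79A at 6.60 CPM in cluster 3, PTPRC at 34 UMIs and CD3E at 4 UMIs in all. The 5 fibroblast markers reached 243 CPM in cluster 0, nearly all from COL1A1, and 117 CPM in cluster 3, with COL1A2 at 33.5 CPM there. The part of these markers in the results was not tested.

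The 241 zinc finger genes together received 316438 UMIs, or 0.332% of all RNA UMIs, and every one of them had at least 1 UMI. The summed level differed between clusters. In cluster 3 they took 0.630% of the UMIs (exact 95% binomial interval 0.626 to 0.634), in cluster 0 0.310%, in cluster 4 0.297%, in cluster 2 0.267%, and in cluster 1 0.193% (0.191 to 0.195). Intervals here and elsewhere cover counting error only. Cluster 3 therefore stood far above the other clusters and cluster 1 below them. Among single nuclei, the quartiles were at 0.512% and 0.727% in cluster 3 and at 0.149% and 0.224% in cluster 1, so the ranges between quartiles did not overlap. Without doublets the shares were 0.657% in cluster 3 and 0.185% in cluster 1. The 20% portion had the same order, with 0.699% in cluster 3, 0.333% in cluster 0, 0.318% in cluster 4, 0.289% in cluster 2 and 0.203% in cluster 1. The ZNF genes on other chromosomes differed much less, between 0.463% in cluster 1 and 0.525% in cluster 4.

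**Figure D1:**
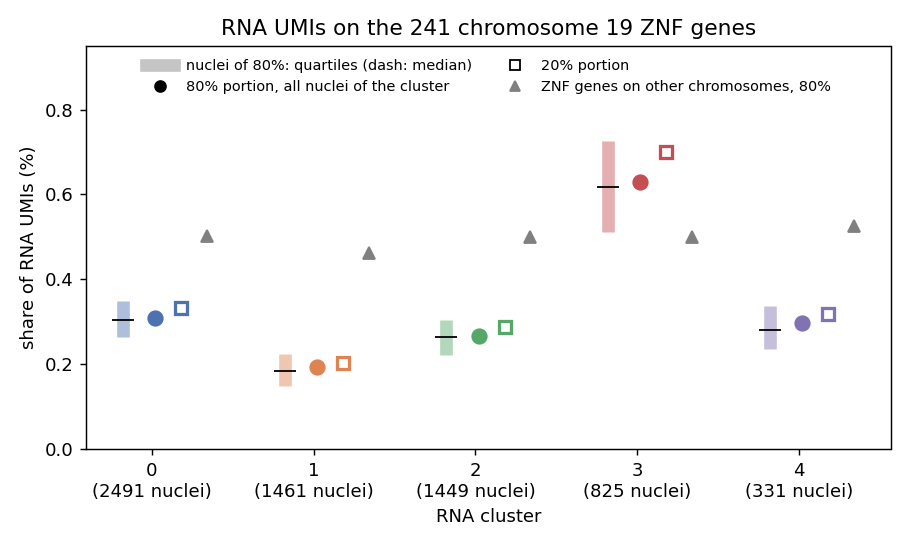
Share of RNA UMIs (percent, vertical axis) that fell on the 241 chromosome 19 ZNF genes in each RNA cluster. Bars span the quartiles over nuclei of the 80% portion with a dash at the median, filled circles are all nuclei of a cluster pooled, open squares are the 20% portion, and grey triangles are the ZNF genes on other chromosomes. Cluster 3 is highest at 0.630% and cluster 1 lowest at 0.193%, while the triangles stay between 0.463% and 0.525%.

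A nucleus of cluster 3 had UMIs from a median of 65 of the 241 genes, compared with 38 in cluster 0, 29 in cluster 4, 28 in cluster 2 and 15 in cluster 1. Nuclei differed in depth, with a median of 15741 UMIs in cluster 3 and 9145 in cluster 1. With every nucleus thinned to 5000 UMIs the medians were 26, 14, 13, 12 and 8 genes, in the same order, and between 3 and 38 shallower nuclei per cluster were left out.

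The UMIs were spread over many members. The 10 members with the most UMIs held 17.5% of the UMIs of all members, and the top 100 held 75.4%. Over all nuclei these 10 were ZNF83 (77.5 CPM), ZNF146 (66.7 CPM), ZNF121 (65.0 CPM), ZNF302 (64.8 CPM), ZNF43 (60.3 CPM), ZNF714 (52.4 CPM), ZNF626 (50.2 CPM), ZNF91 (48.7 CPM), ZNF254 (47.6 CPM) and ZNF431 (46.4 CPM). Per kb of gene length the median level was 0.399 CPM per kb over all members and 0.40 CPM per kb over the ZNF genes elsewhere, so the families did not differ in typical level on this scale. On the same scale ZNF302 was highest at 7.40 CPM per kb, followed by ZNF414 at 4.51 CPM per kb, while ZNF91 reached 0.538 CPM per kb.

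The abundant members did not share a pattern. ZNF83 had 192 CPM in cluster 3, 95.5 CPM in cluster 4, 94.0 CPM in cluster 0, 5.24 CPM in cluster 2 and 5.14 CPM in cluster 1, so that both low clusters fell well over 10 times below the rest. ZNF146, a protein made almost wholly of zinc fingers, had 86.2 CPM in cluster 2, 82.2 CPM in cluster 1, 63.6 CPM in cluster 0, 51.3 CPM in cluster 4 and 39.5 CPM in cluster 3, a reverse order within a narrow range. ZNF302 had between 31.2 CPM in cluster 4 and 82.9 CPM in cluster 1. ZNF121 had between 32.8 CPM in cluster 1 and 108 CPM in cluster 3.

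A gene was called low in a cluster when its CPM was at most 1/4 of the median of its CPM in the other 4 clusters, and high when it was at least 4 times that median. Only genes with at least 20 expected UMIs in the cluster at that median could be called, a filter that does not use the value called. Of the 241 members, 229 could be called in at least 1 cluster and 183 in all clusters. The 12 that could be called in none had between 2 and 68 UMIs, 7 of them lay between 19.7 and 24.1 Mb, and 10 had no ATAC peak at their start. Of the 229 members, 81 (35.4%) were low in at least 1 cluster, against 15.1% of all genes, and 47 (20.5%) were high in at least 1, against 10.3% of all genes. In 138 members no cluster was called either way.

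The calls fell on a few clusters. In cluster 1, 72 of 224 members were low (32.1%), against 5.81% of all genes. In cluster 2, 33 of 224 were low (14.7%), against 9.92%. In cluster 3, 44 of 216 were high (20.4%), against 1.87%. Low calls were rare in cluster 0 (3 of 229, with 3.05% of all genes), cluster 3 (1 of 216, with 2.99%) and cluster 4 (1 of 183, with 2.58%), and the only other high calls were 4 in cluster 0 (3.86% of all genes). Thus the members were over 5 times as often low as other genes in cluster 1, and over 10 times as often high in cluster 3, whereas in cluster 2 the excess over all genes was modest. Of the 33 low members of cluster 2, 19 lay between 19.7 and 24.1 Mb, where 30 could be called. The next most were 5 of 38 between 51.6 and 53.6 Mb. The excess in cluster 2 thus lay in the first of these regions. ZNF genes on other chromosomes were low in 6.60% of cases in cluster 1 and 8.41% in cluster 2, and 0 of 207 was high in cluster 3.

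The low and high sets overlapped. Of the members, 26 were low in both clusters 1 and 2, 46 were low in cluster 1 and not in cluster 2, and 7 the other way round. The high call of cluster 3 was made on 34 members that were also low in cluster 1 or 2, which lowers the median that cluster 3 is measured against, and on 10 members that were low in neither. In absolute order 164 of the 241 members had their highest CPM in cluster 3, and 130 had their lowest CPM in cluster 1. These counts include the 12 members that could be called in no cluster. Neither the overlaps of calls nor these orders were counted over all genes, so they have no background, and whether they are particular to the members was not tested.

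The largest fall was 49.5-fold. ZNF66 had 66.9 CPM in cluster 3, 27.8 CPM in cluster 4 and 24.1 CPM in cluster 0, but 0.879 CPM (13 UMIs) in cluster 1 and 0.524 CPM (10 UMIs) in cluster 2, where it lay 49.5-fold below the median of the other clusters. ZNF91, which binds SVA retrotransposons, had 122 CPM in cluster 3, 61.1 CPM in cluster 0 and 43.2 CPM in cluster 4 against 3.51 CPM in cluster 1 and 1.63 CPM in cluster 2, a 32.1-fold fall in cluster 2. Both genes were therefore well expressed in 3 clusters and near absent from the other two. ZNF329 was low in cluster 2 and in no other cluster, at 0.262 CPM (5 UMIs), with 3.31 CPM in cluster 1 and between 6.08 and 22.0 CPM elsewhere. ZNF439 had 0.405 CPM in cluster 1 and 0.419 CPM in cluster 2, with 11.5 CPM in cluster 0 and 20.4 CPM in cluster 3.

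ZNF667 and ZNF471 were the members that also fell in cluster 0. ZNF667 had 0.261 CPM in cluster 0, 0.203 CPM in cluster 1 and 0.891 CPM in cluster 2 against 9.97 CPM in cluster 3 and 16.8 CPM in cluster 4. ZNF471 had 0.214, 0.405 and 0.839 CPM in clusters 0, 1 and 2 against 6.46 CPM in cluster 3 and 5.88 CPM in cluster 4. The third member low in cluster 0, ZNF730, had 59.6 CPM in cluster 3 and 28.8 CPM in cluster 4 but at most 1.19 CPM in the other 3 clusters. These 3 members were thus expressed in clusters 3 and 4 and close to silent in the rest.

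Cluster 3 held the largest rises. ZNF676 had 108 CPM in cluster 3 and between 2.61 and 5.07 CPM in the other clusters, 31.5-fold above their median. ZNF114 had 106 CPM in cluster 3 against 4.84 to 17.4 CPM elsewhere, and ZNF90 had 75.3 CPM against 3.93 to 11.7 CPM. ZNF556, too low elsewhere to be called, had 475 UMIs (32.7 CPM) in cluster 3 and no more than 1.01 CPM elsewhere. No member was called high in cluster 1, cluster 2 or cluster 4, against 2.71%, 3.39% and 1.4% of all genes, and among the members that could be called there the steepest rises were ZNF546 in cluster 1 (17.0 CPM, 3.05-fold), ZNF284 in cluster 2 (11.5 CPM, 3.24-fold) and ZNF600 in cluster 4 (24.3 CPM, 2.77-fold). In cluster 4, where 183 of the 241 members could be called, this rests on the filter. With at least 5 expected UMIs 2 members were high there, and members that could not be called included ZNF730, with 28.8 CPM, and ZNF667, with 16.8 CPM. ZNF439, ZNF540 and ZNF404 were high in cluster 0, between 4.35-fold and 5.12-fold. Such a call does not make cluster 0 the highest. ZNF439 had 11.5 CPM there and 20.4 CPM in cluster 3, and its median in the other clusters, 2.24 CPM, was lowered by clusters 1 and 2.

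Low members lay next to each other. Of the 72 members low in cluster 1, the next callable member along the chromosome was also low for 46 (63.9%), where 32.1% of all callable members were low. The figures were 17 of 33 (51.5%, with 14.7% of all) for cluster 2 and 27 of 44 (61.4%, with 20.4% of all) for the high calls of cluster 3. Of callable genes that are no members, 5.42% were low in cluster 1, 9.85% low in cluster 2 and 1.60% high in cluster 3. Among those called, the next gene was called too in 22.7%, 30.4% and 4.15%, although those genes have other spacing. Neighbours thus shared calls above the base share among other genes as well. The profiles over the 5 clusters followed distance as well. For the 216 members with at least 5 CPM in some cluster, the median correlation of log2 CPM between a pair was 0.83 for genes under 50 kb apart, 0.79 from 50 to 200 kb, 0.73 from 200 to 1000 kb, 0.64 from 1000 to 5000 kb and 0.45 beyond. Each correlation rests on 5 points that come from the same libraries.

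**Figure D2:**
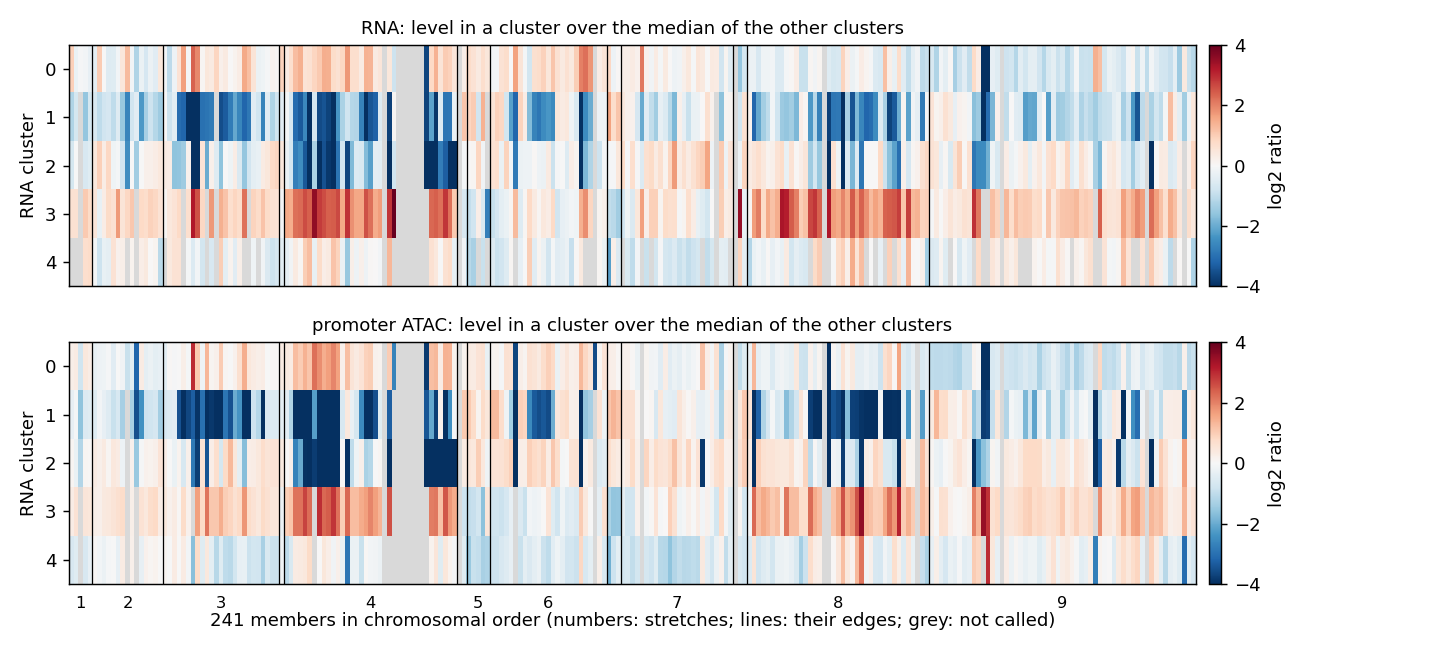
All 241 members from left to right in chromosomal order, with 1 row per RNA cluster. Colour is the log2 ratio of the level in a cluster to the median of the other 4 clusters, limited to the range from -4 to 4, for RNA in the upper map and for ATAC counts at the gene start in the lower map, with grey where a gene could not be called. Blue blocks of cluster 1 lie mainly in stretches 3, 4 and 8, those of cluster 2 in stretch 4, and red blocks of cluster 3 in stretches 4 and 8. Most low RNA calls of clusters 1 and 2 were low in ATAC too, and 20 of 40 high RNA calls of cluster 3 were high in ATAC.

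Members less than 1 Mb from the next formed 9 stretches of 5 to 57 genes, which left 9 members outside. Calls were concentrated in some of them. Stretch 4, between 19.7 and 24.1 Mb with 37 members, had 19 of 30 callable members low in cluster 1, 19 of 30 low in cluster 2 and 20 of 29 high in cluster 3. The other genes of this stretch carried the same calls, with 9 of 12 callable low in cluster 1, 11 of 13 low in cluster 2 and 5 of 8 high in cluster 3. Their median log2 ratios there were -2.59, -3.93 and 2.24, and those of the members were -2.79, -2.84 and 2.30. The summed level of the members was 2096 CPM in cluster 3, 839 CPM in cluster 0, 663 CPM in cluster 4, 232 CPM in cluster 1 and 201 CPM in cluster 2. Cluster 3 was thus about 10 times above clusters 1 and 2 over this stretch. Stretch 3, between 11.5 and 12.6 Mb, had 16 of 24 members low in cluster 1 but 2 of 25 low in cluster 2, and 3 of its 5 other callable genes were low in cluster 1. Stretch 8, between 51.6 and 53.6 Mb, had 17 of 38 members low in cluster 1, 5 of 38 low in cluster 2 and 16 of 38 high in cluster 3, and of its other genes 3 of 11 were low in cluster 1 and 2 of 10 high in cluster 3. In stretch 6, between 36.2 and 37.8 Mb, 9 of 24 members were low in cluster 1, 2 of 24 low in cluster 2 and none of 24 high in cluster 3. Its other genes were low at least as often, with 7 of 16 in cluster 1 and 8 of 17 in cluster 2, and their median log2 ratio in cluster 1 was -1.71 against -0.68 for the members. In stretch 8 the median log2 ratio in cluster 1 was -1.79 for the members and -0.14 for the other genes. In cluster 3 it was 1.67 and 1.21. Members of stretch 8 were thus more often low in cluster 1 and high in cluster 3 than its other genes. In cluster 2 its other genes were low in 3 of 11. In stretches 3, 4 and 6 the calls were thus also made on genes outside the rule of the members. Such other genes can include zinc finger genes with other symbols and antisense transcripts, which were not counted apart. Some of those called in stretch 4 were non-coding, such as LINC00664, low in cluster 1, and LINC01224, low in cluster 2. How far the calls reached beyond zinc finger genes over whole stretches was not tested.

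Low calls in clusters 1 and 2 were less frequent in the other stretches. The 57 members of stretch 9, between 55.5 and 58.5 Mb, included 8 of 55 low in cluster 1, 4 of 54 low in cluster 2 and 4 of 51 high in cluster 3. Its other genes had these calls in 7 of 34, 7 of 35 and 4 of 29, and all genes in 5.81%, 9.92% and 1.87%. Stretch 2, between 7.07 and 9.77 Mb, had 2 of 15 low in cluster 1 and 1 of 15 in cluster 2. The 24 members of stretch 7, between 43.5 and 45.1 Mb, included 1 of 23 low in cluster 1. Stretches 1 and 5, with 5 members each, had no low member in clusters 1 and 2.

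The longest run of callable members that were all low in cluster 1 held 15 genes over 599 kb, from ZNF441 to ZNF442 (chr19:11766999-12365683, hg38), within stretch 3. In order these were ZNF441, ZNF491, ZNF440, ZNF439, ZNF69, ZNF700, ZNF763, ZNF433, ZNF844, ZNF20, ZNF625, ZNF136, ZNF44, ZNF563 and ZNF442, and ZNF878 within the run was too low to be called. Together they had 21.5 CPM in cluster 1 against 295 CPM in cluster 3, 184 CPM in cluster 0, 145 CPM in cluster 4 and 127 CPM in cluster 2. Single genes were between 4.17-fold and 19.1-fold below the median of the other clusters. The run had sharp edges. ZNF823, just before it, had 13.4 CPM in cluster 1 and 5.87 to 20.9 CPM elsewhere, and ZNF799, just after it, had 4.19 CPM in cluster 1 and 4.35 to 8.46 CPM elsewhere. Inside the run ZNF440 had 0.879 CPM in cluster 1 and 15.6 to 24.9 CPM elsewhere, and ZNF700 had 4.12 CPM in cluster 1 and 19.5 to 43.7 CPM elsewhere. Of these 15 genes ZNF439 and ZNF69 were low in cluster 2 as well. The 1 other callable gene in the interval, the antisense transcript ZNF433-AS1, was also low in cluster 1, with 4.87 CPM against 19.7 to 88.2 CPM elsewhere. Without doublets the run fell further in cluster 1, from 0.215 to 0.135 UMIs per 10000.

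In cluster 2 the longest run held 7 genes over 1012 kb within stretch 4 (chr19:23075209-24087193, hg38), namely ZNF730, ZNF724, ZNF91, ZNF675, ZNF681, ZNF726 and ZNF254. Their sum was 10.3 CPM in cluster 2, 69.3 CPM in cluster 1, 178 CPM in cluster 4, 194 CPM in cluster 0 and 488 CPM in cluster 3. All 7 were between 6.80-fold and 32.1-fold below the median, and all 6 other callable genes in the interval, which were non-coding, were low there as well. Cluster 1 did not follow this run throughout. ZNF254 had 41.6 CPM and ZNF675 had 15 CPM in cluster 1, and neither was low, against 1.78 CPM and 3.25 CPM in cluster 2.

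**Figure D3:**
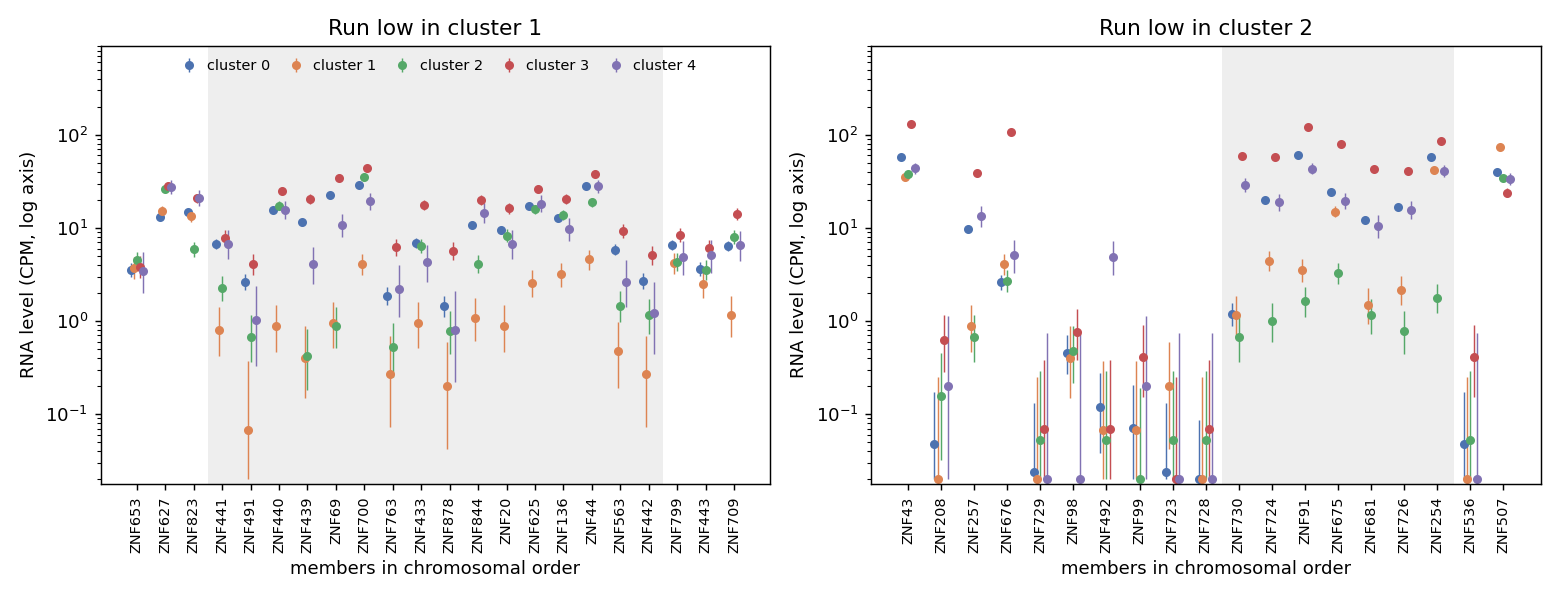
RNA level (CPM, log axis) of the members around the longest run low in cluster 1 (left) and in cluster 2 (right), in chromosomal order with the runs shaded. Points are clusters, bars are exact 95% Poisson intervals, and points on the lower edge had no UMI. In the left run cluster 1 lies below the other clusters or level with cluster 2. It rejoins them at ZNF799 and falls below them again at ZNF709. In the right run cluster 2 is lowest, while cluster 1 is near 41.6 CPM at ZNF254.

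Runs in cluster 1 outside stretch 3 were shorter. ZNF486, ZNF737, ZNF626, ZNF66 and ZNF85 summed to 11.9 CPM in cluster 1 and 9.38 CPM in cluster 2 against 119 to 360 CPM in the other clusters, and ZNF506, ZNF253, ZNF93 and ZNF682 summed to 9.12 and 9.86 CPM against 78.5 to 213 CPM. These 9 genes, and ZNF90 between the groups, formed the longest run high in cluster 3, with 648 CPM there. In the runs ZNF790 to ZNF420 and ZNF528 to ZNF83, 5 genes each, cluster 1 had 10.1 and 12.3 CPM, whereas cluster 2 had 48.4 and 39.2 CPM. The runs of clusters 1 and 2 named here thus coincided in part of stretch 4 and otherwise differed. Single members outside stretch 4, such as ZNF439 and ZNF69, were also low in both clusters.

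Over whole arms, most of whose other genes lie outside the stretches, the members and the other genes differed. On the short arm, which holds stretches 1 to 4, the median log2 ratio in cluster 1 was -1.81 over 74 members and -0.52 over 414 other genes, and -0.47 over 2071 ATAC peaks. On the long arm it was -0.80 over 150 members, but 0.53 over 431 other genes and 0.79 over 1944 peaks. In cluster 3 the members had 1.13 on the short and 0.86 on the long arm, with 0.48 and -0.34 for other genes. These medians hold over arms and not within stretches 4 and 6, where the other genes fell with the members in clusters 1 and 2 or below them. The part of the shift of a whole arm in the members' calls was not tested.

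Promoters of members from the 2 longest runs, and of the first gene beyond the first run, are shown here to set sequence beside these levels. They are RefSeq promoters (GRCh38.p14), 250 bases before to 50 bases after the start, read 5′ to 3′ on the strand of the gene. Capitals mark the ETS motif CCGGAAG, the GC box GGGCGG and CCAAT on either strand. ZNF440 and ZNF442 lie in the run low in cluster 1, and ZNF799 is the next gene after it:
ZNF440 (chr19:11814023-11814322, plus strand): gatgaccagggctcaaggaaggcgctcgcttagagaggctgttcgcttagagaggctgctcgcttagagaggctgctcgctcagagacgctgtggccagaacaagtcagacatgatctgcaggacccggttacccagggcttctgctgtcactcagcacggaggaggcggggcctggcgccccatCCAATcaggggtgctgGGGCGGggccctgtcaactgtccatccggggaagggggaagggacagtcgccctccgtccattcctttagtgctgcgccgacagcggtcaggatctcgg
ZNF442 (chr19:12365634-12365933, minus strand): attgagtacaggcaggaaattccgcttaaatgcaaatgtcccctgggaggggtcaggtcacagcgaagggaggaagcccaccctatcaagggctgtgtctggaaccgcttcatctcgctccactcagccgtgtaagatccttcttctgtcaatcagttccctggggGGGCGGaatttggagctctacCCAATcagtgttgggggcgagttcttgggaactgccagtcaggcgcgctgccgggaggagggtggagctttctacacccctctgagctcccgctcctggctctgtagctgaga
ZNF799 (chr19:12401222-12401521, minus strand): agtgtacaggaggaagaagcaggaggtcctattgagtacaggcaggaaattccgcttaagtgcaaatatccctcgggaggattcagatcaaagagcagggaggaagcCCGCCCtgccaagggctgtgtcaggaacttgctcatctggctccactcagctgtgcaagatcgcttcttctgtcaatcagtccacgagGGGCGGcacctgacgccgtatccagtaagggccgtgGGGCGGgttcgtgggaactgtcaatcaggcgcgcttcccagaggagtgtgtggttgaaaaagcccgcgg

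ZNF442 and ZNF799 lie 44.1 kb apart, and their promoters were 73.3% identical in a global alignment. In cluster 1 ZNF442 had 0.270 CPM and 2.20 ATAC CPM at its start, whereas ZNF799 had 4.19 CPM and 24.4 ATAC CPM. The next pair are both from the run low in cluster 2:
ZNF91 (chr19:23395422-23395721, minus strand): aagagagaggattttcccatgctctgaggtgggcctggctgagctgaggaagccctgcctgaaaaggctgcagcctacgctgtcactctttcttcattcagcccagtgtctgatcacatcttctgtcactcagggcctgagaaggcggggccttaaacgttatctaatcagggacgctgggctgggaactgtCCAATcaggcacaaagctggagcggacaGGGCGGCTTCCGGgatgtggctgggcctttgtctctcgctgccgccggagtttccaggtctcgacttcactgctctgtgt
ZNF254 (chr19:24086937-24087236, plus strand): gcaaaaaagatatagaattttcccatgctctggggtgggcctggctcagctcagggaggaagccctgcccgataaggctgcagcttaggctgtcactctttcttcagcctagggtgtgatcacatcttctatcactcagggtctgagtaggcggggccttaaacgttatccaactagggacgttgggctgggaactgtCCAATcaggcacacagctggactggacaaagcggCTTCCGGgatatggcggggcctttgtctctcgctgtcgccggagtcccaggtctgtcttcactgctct

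These promoters were 87.0% identical, and both genes were low in cluster 2, but in cluster 1 ZNF91 had 3.51 CPM and ZNF254 had 41.6 CPM. The peak over the printed promoter had 1.94 ATAC CPM in cluster 1 at ZNF91 and 38.9 at ZNF254. Close relatives could therefore differ within 1 cluster. Among 21945 pairs of member promoters 395 were at least 70% identical, and 393 of these lay within 5 Mb of each other. Of 320 such pairs callable in cluster 1, both genes were low in 137, 1 of them in 144 and neither in 39. Of all callable members 32.1% were low in cluster 1, and the genes of these pairs were low more often than that. A gene can stand in many pairs, and whether similar promoters met in their calls beyond this was not tested.

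Promoters were matched for 210 of the 241 members. They held a median of 20 CpG dinucleotides in 300 bases, against 14 over all 35116 promoters and 19 over other chromosome 19 promoters. The ratio of observed to expected CpG was 0.765, against 0.579 over all and 0.668 over other chromosome 19 promoters. Among members this ratio was 0.667 for the 69 that were low in cluster 1 or 2 and 0.798 for the 128 that were callable in both and low in neither. The ETS motif CCGGAAG was found in 44.3% of member promoters, 10.3% of all promoters and 13.8% of other chromosome 19 promoters. It was about as common in the 69 low members (46.4%) as in the 128 others (43.8%). GGGCGG was found in 69.5% of members, 45% of all and 61.0% of other chromosome 19 promoters. For CCAAT the shares were 52.9%, 34.6% and 35.2%. These motifs were more frequent in the low members than in the 128 others, with 79.7% and 62.5% for GGGCGG and 65.2% and 46.1% for CCAAT. The other motifs searched on both strands were GCGCATG (4.29% of members, 4.43% of all), TCTCGCG (4.76%, 3.49%), TGACGTC (3.81%, 3.45%), AAGATGG (7.62%, 5.84%) and CACGTG (3.81%, 7.26%). Matches may overlap each other, and a match is not a bound site.

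Accessibility at the gene start was compared with RNA in the same nuclei, since the RNA calls made no use of it. Of the members, 229 (95%) had an ATAC peak within 1000 bp of the interval from first to last annotated start, against 62.6% of all genes. Among genes with at least 95 UMIs, a level that most members reached, the share was 91.2%. The members were thus close to other expressed genes in this respect. Where the annotation gives a gene several starts, all peaks between the first and the last were included, also those inside the gene. ZNF254 and ZNF83 are examples. The counts of all such peaks of a gene were summed, and accessibility at the gene start stands for this sum. The same call by size was applied to these sums. In cluster 1, 74 of 224 members were low in accessibility (33.0%), against 4.73% of all genes with such a peak. In cluster 2 it was 36 of 224 (16.1%), against 5.01%, and in cluster 3 26 of 216 were high (12%), against 0.966%.

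The calls met on the same genes. Of 107 member and cluster pairs that were low in RNA and callable in ATAC, 95 were also low in accessibility (88.8%, exact 95% interval 81.2 to 94.1), whereas among 947 pairs not low in RNA it was 22 (2.32%). Over all pairs of a gene and a cluster, 3.62% were low in accessibility, and of 2975 such pairs low in RNA outside the members 898 were low in accessibility too (30.2%). By cluster, 63 of 70 were low in both in cluster 1 and 29 of 32 in cluster 2. Pairs in neighbouring genes are not independent, and some neighbours share a peak that counts for both, such as ZNF829 and ZNF568. High calls met less often, with 20 of 40 in cluster 3 (50%, 33.8 to 66.2) against 3 of 168 members not high in RNA and 28 of 196 other genes high in RNA (14.3%). Across members, the Pearson correlation between the RNA and ATAC log2 ratios was 0.88 in cluster 1, 0.85 in cluster 2, 0.83 in cluster 3, 0.74 in cluster 0 and 0.66 in cluster 4. Across all genes it was 0.59 to 0.67, and genes are not independent points.

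**Figure D4:**
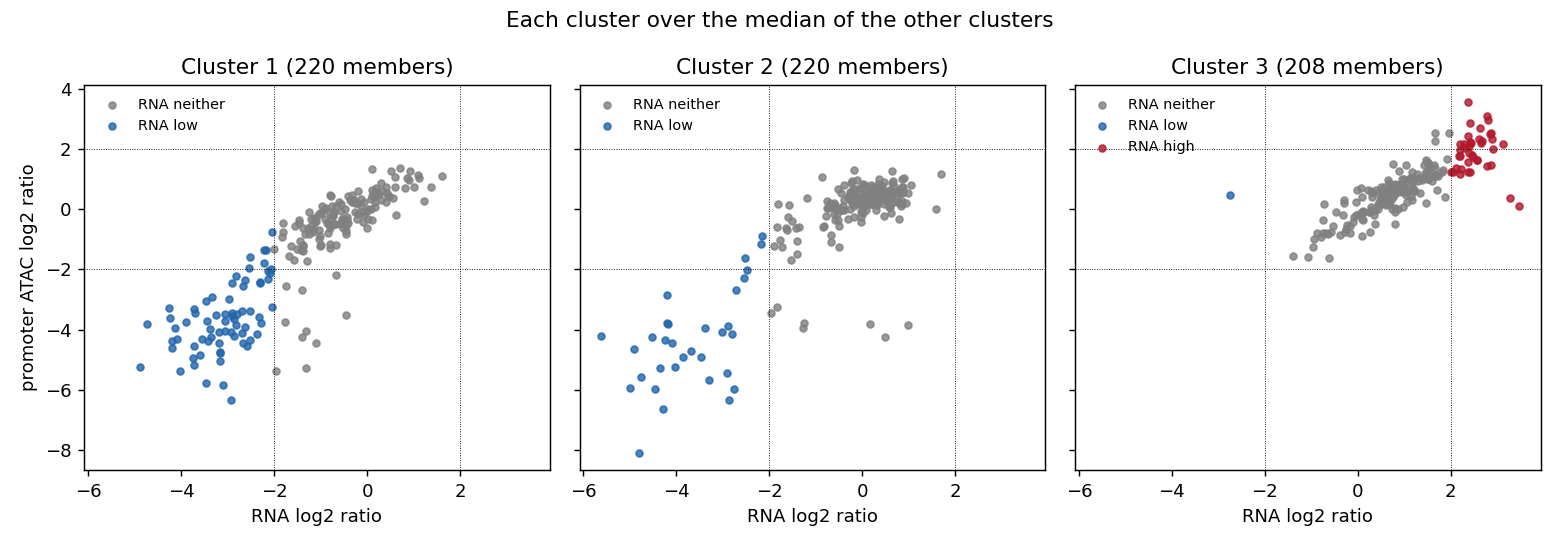
RNA log2 ratio (horizontal) and ATAC log2 ratio at the gene start (vertical) of the members in clusters 1, 2 and 3, each against the median of the other 4 clusters. Points are members, blue is low and red is high in RNA, and dotted lines mark the limits of a call. In clusters 1 and 2, 63 of 70 and 29 of 32 blue points lie below the lower limit of ATAC, and in cluster 3 20 of 40 red points lie above the upper one.

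In the longest run of cluster 1, 14 of 15 starts were low in ATAC, and the exception, ZNF136, had 9.17 ATAC CPM in cluster 1 against 21.6 to 42.4 elsewhere. All 7 starts of the run in cluster 2 were low. At ZNF675, ZNF681, ZNF724 and ZNF730 no ATAC count was found in cluster 2, and their ratios used 3 counts (0.321 ATAC CPM). Clusters 0, 3 and 4 had up to 109 ATAC CPM (ZNF730 in cluster 3, summed over 5 peaks). DNA copy number was not measured, and its part in these low counts was not tested. At ZNF83, summed over 8 peaks, accessibility followed RNA, with 236 ATAC CPM in cluster 3, 94.5 in cluster 4 and 75.2 in cluster 0 against 6.11 in cluster 2 and 4.06 in cluster 1.

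Some members parted from this rule. ZNF587 and ZNF577 had low accessibility in cluster 2, with 1.93 and 0.750 ATAC CPM against at least 15.6 for ZNF587 elsewhere, but their RNA there was 19.2 and 10.6 CPM and was not low. In cluster 1 the starts of ZNF814, ZNF880, ZNF677 and ZNF415 had at most 0.970 ATAC CPM and their RNA of 12.6, 7.03, 3.24 and 1.42 CPM did not reach the limit of a low call. The reverse was seen for ZNF547 in cluster 1, with 1.15 CPM but 36.3 ATAC CPM. ZNF432 rose in RNA in cluster 3, to 84.1 CPM, with 29.3 ATAC CPM, which lay within the range of the other clusters. ZNF114 had 2 peaks that went opposite ways in cluster 3, one at 19 ATAC CPM against at most 7.54 elsewhere and one at 9.97 against at least 12.6. ZNF792, with 0.206 CPM (3 UMIs) in cluster 3, likewise had one peak that was lowest there (3.52 ATAC CPM) and one that was highest there (9.57). By contrast ZNF676 had 18.9 ATAC CPM in cluster 3 and at most 1.51 elsewhere.

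The 20% portion gave a second library from the same suspension. Its nuclei were assigned to the cluster whose profile without chromosome 19 genes they resembled most. In that portion the same call marked 3.62% of all pairs of a gene and a cluster low and 1.3% high. Of 70 member and cluster pairs that were low in the 80% portion and callable in both, 62 were low in the 20% portion too (88.6%, 78.7 to 94.9), and all 70 were below the median. For high calls it was 12 of 16. Other genes were met again nearly as often, with 1406 of 1744 low pairs (80.6%) and 576 of 695 high pairs (82.9%), so this share was not particular to the members. In the runs, 6 of 6 callable genes of the 15-gene run and 6 of 7 of the 7-gene run were low again. The median log2 ratio of the 29 pairs low in cluster 2 was -4.04 in the 80% portion and -2.97 in the 20% portion, and that of the 38 pairs low in cluster 1 was -2.96 and -3.19. Folds against fewer than 3 counts used 3 counts, which limits the ratios of the shallower 20% portion, so the sizes are not compared.

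**Figure D5:**
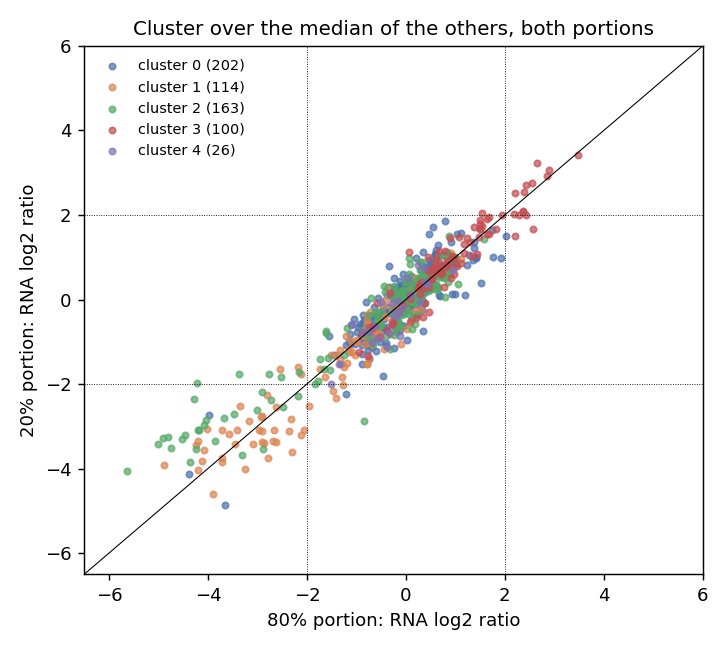
Log2 ratio of a member in a cluster to the median of the other 4 clusters, in the 80% portion (horizontal) and in the 20% portion (vertical), for the 605 member and cluster pairs callable in both. Colours are clusters with the number of members in brackets, the solid line is equality and dotted lines mark the limits of a call. Of the 70 pairs left of the lower limit, 62 also lie below it in the 20% portion.

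The runs were also counted in single nuclei. With every nucleus thinned to 5000 UMIs, 8.68% of the nuclei of cluster 1 had a UMI from the 15-gene run (exact interval 7.27 to 10.3), against 74.9% in cluster 3, 59.2% in cluster 0, 48.1% in cluster 4 and 47.2% in cluster 2. Without thinning the shares were 14.9% in cluster 1 and between 77.3% and 97.7% in the others. For the 7-gene run the thinned shares were 4.19% in cluster 2, 26.6% in cluster 1, 50.3% in cluster 4, 58.4% in cluster 0 and 86.7% in cluster 3. Free RNA in the droplets also gives UMIs, and its part in these low shares was not tested.

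Cluster 3 was not uniform. A finer clustering, chosen after the data were seen, divided it into groups of 460 and 364 nuclei, in which the members took 0.689% and 0.545% of the UMIs. Stretch 8 had 1819 CPM in the first and 950 CPM in the second, and stretch 4 had 2367 CPM and 1702 CPM. In the other direction stretch 3 had 351 CPM in the first and 593 CPM in the second. Both groups stayed above the 0.311% of the finer cluster that held most of cluster 0.

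Members that are known to bind transposable elements were described as a list. Of 8 such genes, 5 were low in cluster 1, 2 were low in cluster 2 and 3 were high in cluster 3, where 32.1%, 14.7% and 20.4% of all callable members and 5.81%, 9.92% and 1.87% of all genes were. Their median log2 ratio in cluster 2 was 0.03, and their sum was 369 CPM in cluster 3 against 51.2 CPM in cluster 1. ZNF93, which binds L1 elements, had 58.4 CPM in cluster 3, 18.9 CPM in cluster 4 and 16.0 CPM in cluster 0 but 2.91 CPM in cluster 1 and 1.68 CPM in cluster 2. ZNF649 and ZNF320 were low in cluster 1 and in no other cluster where they could be called, with 1.42 and 0.405 CPM, and ZNF808 had 1.42 CPM there against 6.58 to 25.1 CPM elsewhere. ZNF765 and ZNF160 were not low in any cluster, with lowest levels of 14.5 and 19.6 CPM in cluster 0.

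Of 10 members known for promoter methylation in tumours, 4 of 10 callable were low in cluster 1, 5 of 9 in cluster 2 and 2 of 10 in cluster 0, and 3 of 6 were high in cluster 3. Of all callable members 1.31% were low in cluster 0, and of all genes 3.05%, and the shares for the other clusters are those given for the list before. ZNF177 and ZNF382 were low in clusters 1 and 2, at 1.08 and 1.21 CPM and at 0.405 and 0.524 CPM, against 6.49 to 9.26 CPM and 3.04 to 5.46 CPM elsewhere. ZNF677 had 54.4 CPM in cluster 3 and 1.57 CPM in cluster 2. ZNF331, an imprinted gene, was called in no cluster and had between 19.1 and 63.0 CPM. DNA methylation itself was not measured.

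Of the corepressor and DNA methylation genes, all 24 could be called in every cluster, and none was low or high in any. Over all genes, 15.1% were low and 10.3% high in at least 1 cluster, so a count of 0 of 24 lay below both shares. The list is short, and this gap was not tested. TRIM28 had 341 CPM in cluster 3, 245 CPM in cluster 2, 193 CPM in cluster 4, 189 CPM in cluster 1 and 100.0 CPM in cluster 0. SETDB1 had 23.3 to 38.1 CPM, and DNMT1, the maintenance DNA methyltransferase, had 158 CPM in cluster 1 and up to 408 CPM in cluster 4. UHRF1, which guides DNMT1, had 31.3 CPM in cluster 2 and 127 CPM in cluster 3. TET1, an enzyme that oxidises methylcytosine, had 79.3 CPM in cluster 2 and 15 to 24.1 CPM elsewhere.

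Among 5834 genes with at least 20 CPM, those whose log2 CPM over the 5 clusters was most like the sum of the members were GATAD2A (Pearson r = 0.988), GLO1 (0.987), AIMP2 (0.986), POLR2E (0.984) and BCR (0.983). With 5 points from the same libraries such values arise easily. GATAD2A and POLR2E are, like the members, genes of chromosome 19. GATAD2A had 155 CPM in cluster 3 and 46.8 CPM in cluster 1, and POLR2E had 108 and 69.0 CPM. The correlation compares the shape of the profiles and not the size of the differences.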

How the data were processed

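Counts deposited by the authors were used, namely RNA UMI counts per gene and ATAC counts per peak for either portion. The submitters' processing notes name Cell Ranger ARC 2.0.0 and GRCh38. The counts are not normalized and cover barcodes called as cells, and the sources do not tell if a fragment adds 1 or 2 to the ATAC counts. RNA depth was 95455518 UMIs in the 80% and 14346346 UMIs in the 20% portion. The members and gene lists were chosen with earlier results of these data known.

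Clustering of RNA was done in R 4.3.3 by the Louvain method of Seurat 5.3.0 with 2000 variable genes, 30 components and 20 neighbours, at the lowest resolution that gave at least 5 clusters of at least 1% of nuclei (0.05). Genes of chromosome 19 were left out. Counts were summed per cluster and divided by the cluster's total. Scrublet (scanpy 1.11.5) marked doublets, which were kept in the main values. Calls were made by size, at a ratio of 1/4 or 4 with at least 20 expected UMIs. With 1 library per portion and kind no test was possible, and the calls make no allowance for variation between libraries. Folds against fewer than 3 counts used 3 counts. The call and run steps were checked on simulated data. Gene lengths came from GENCODE v44 and promoters from RefSeq, aligned in pairs with Biopython 1.88. Nuclei of the 20% portion were assigned by correlation with the cluster profiles. The same rule returned 97.3% of the nuclei of the 80% portion to their own cluster. The profiles were made from those nuclei, so this share does not measure the accuracy in the 20% portion. Named genes were the 10 members with the highest CPM, the 3 largest falls and rises per cluster, members of the longest runs and their edges, members of the lists, members whose RNA and ATAC calls differ, and the 5 genes most like the sum. ZNF414, ZNF556 and members outside these rules were named after their values were seen. The matrix of both portions together and the long-read table were not used here.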

Additional observations from a re-analysis of the deposited data

How the results depend on the processing

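Of 45 alternatives to 6 results, 39 stayed within the limit set for no change and 6 moved. The limit was wider for counts of members and run lengths than for the share of UMIs, so these numbers do not measure stability. Without doublets the members took 0.330% of the UMIs, against 0.332% with them, which counted as moved. With a call at 1/8 or 8 times, 42 members were low and 7 high in at least 1 cluster, and the longest low run held 5 genes. Under the other alternatives the low members numbered 71 to 87, the high members 37 to 58 and the longest run 11 to 16 genes. All of these counted as no change, against 81, 47 and 15 in the main values. With an ATAC call at 1/2 the share of low pairs with low accessibility was 97.2%, and with a call at 1/2 in the 20% portion all 70 low pairs were met, or 100%. Finer clusters were added after the data were seen. Scaling by the other chromosome 19 genes shifted the median log2 ratio of all genes from -0.09 to -0.32 in cluster 2 and from 0.03 to -0.20 in cluster 3. The members then had medians of -0.94, -0.34 and 0.72 in clusters 1, 2 and 3, compared with -1.03, -0.06 and 0.93. No paired analysis was possible because each portion had 1 library of each kind. With no replicate, none could be left out. Genes with few UMIs, and cluster 4 with 331 nuclei, limit what could be called.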
